A study of Equus caballus with 17 samples.

Results

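The miR-181 family was described in horse (Equus caballus) testis at 4 stages and in sperm. Its members here were the annotated mature miRNAs named eca-miR-181a and eca-miR-181b (miR-181a and miR-181b from here on), 2 of the 274 annotated mature miRNAs of the deposited table, chosen by name and not by any measured value. Small RNA had been sequenced to follow spermatogenesis in 17 libraries: Infant testis (n = 3), Pre-puber testis (n = 3), Puber testis (n = 3), Adult testis (n = 4) and Sperm (n = 4). The labels give no strain, treatment or age in years for any group, and no promoter, allele or agent. They do not say that each library is a separate animal, so a p-value covers the spread among these libraries alone, which may be technical. Infant 31a and 31b share a title number, and so do Pre-puber 3a and 3b.

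MicroRNAs are short RNAs that guide Argonaute proteins to messenger RNAs, mainly through the seed near their 5′ end, and lower the output of those messages. In mammals the loci of the miR-181 family include some in which an a-type and a b-type hairpin lie side by side, and its mature forms share one seed. In mouse, miR-181a is known for its high level in thymocytes, where it tunes T cell receptor signalling, and for its part in muscle differentiation.

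The table listed each member once, miR-181a under the precursor eca-mir-181a-2 and miR-181b under eca-mir-181b. In the RefSeq gene table of the assembly TB-T2T, which is not the build named for these data, the genes MIR181A and MIR181B neighbour each other on one chromosome. Both lie within the span of NR6A1, which encodes the nuclear receptor also called germ cell nuclear factor, and of a long non-coding RNA gene. MIR181A-2 lies on another chromosome. The counts do not show which of the a-type loci the miR-181a reads came from.

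The table gives no sequence for annotated miRNAs, so none is printed for the members. It does give the sequences of its 1461 predicted hairpin entries, which carry no miRNA name. They were searched on the listed strand for the 7 letters ACAUUCA, the seed known for the family, and 11 of them (0.753%) held these letters anywhere. In 3 entries (0.205%) the letters stood at bases 2 to 8 of the listed sequence, where a seed would lie if the sequence begins with a mature miRNA. Of these, 7_4521473 and 7_4521474 had the same sequence, position and counts and were taken as 1 measurement. The sequences are shown because they are the rows without a miRNA name whose listed sequence has this seed at its start. They were picked by these 7 letters alone. The rest of each sequence was not compared with known miR-181 forms, so whether either is such a form was not tested. They are given 5′ to 3′ with the seed letters in capitals and lie on horse chromosome 7, the first at chr7:46208596-46208656 on the minus strand and the second at chr7:47079038-47079079 on the plus strand (EquCab3.0, the build in the submitters' processing notes).
7_4647971: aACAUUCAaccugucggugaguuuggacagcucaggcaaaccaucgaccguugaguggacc
7_4521473: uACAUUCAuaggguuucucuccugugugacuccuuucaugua

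Counts of annotated miRNAs ranged from 1.48 to 13.1 M (M, units of 1000000 counts) per library and were highest in Infant and Pre-puber and lowest in Sperm, so depth moved with the group. Levels below are counts per 1000000 annotated counts (CPM) after scaling by the trimmed mean of M values (TMM) over all 17 libraries. As a check of the labels, a list of miRNAs of meiotic and later germ cells (miR-34b, miR-34c, miR-449a and miR-449b measured, none at 0 in any group) summed to 14.8 to 42.8 CPM in Infant libraries. The sum was 48.3 to 2858 CPM for Pre-puber, 9988 to 19571 CPM for Puber, 39280.5 to 57016 CPM for Adult and 82236 to 216112 CPM for Sperm. Pre-puber 14 held the 2858 CPM and stood apart from the other Pre-puber libraries. A stromal and smooth muscle list (miR-145, miR-199a-5p and miR-199b-5p) summed to 13139 to 41271 CPM over the testis groups and to 41.4 to 122 CPM in Sperm. Testis RNA is a mixture of cell types, and fewer cells of a type cannot be told apart from less RNA per cell.

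miR-181a was the more abundant member. Infant 31a, 31b and 30 stood at 4999.8, 5745 and 3815 CPM, Pre-puber 3a, 3b and 14 at 3788, 2467 and 3413 CPM, and Puber 10, 11 and 19 at 1876, 1907 and 1807 CPM. Adult 13, 20, 33 and 4 stood at 1754, 1031, 1279.8 and 2603 CPM, with Sperm 1, 2, 3 and 4 at 1450.45, 1861, 2429 and 1995 CPM. All 3 Infant libraries were above all others, the Puber libraries lay close together, and the Adult libraries were spread around them. The Infant mean was 4853 ± 973 CPM (SD, n = 3), the Pre-puber mean 3223 ± 681 (n = 3), the Puber mean 1863 ± 51.1 (n = 3), the Adult mean 1667 ± 692 (n = 4) and the Sperm mean 1934 ± 403 (n = 4). In the order of these means, Infant did not overlap with Pre-puber, nor Pre-puber with Sperm, while Sperm overlapped with Puber and Puber with Adult. By mean level, miR-181a ranked 23 of the 274 annotated miRNAs for Infant, 30 for Pre-puber, 39 for Puber, 47 for Adult and 36 for Sperm.

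miR-181b followed at a lower level. Infant 31a, 31b and 30 stood at 845, 1477 and 1313 CPM, Pre-puber 3a, 3b and 14 at 1149, 883 and 703 CPM, and Puber 10, 11 and 19 at 586, 543 and 528 CPM. Adult 13, 20, 33 and 4 stood at 455, 335, 274 and 523 CPM, with Sperm 1, 2, 3 and 4 at 268, 465, 317 and 338 CPM. The Infant and Pre-puber libraries overlapped with each other and lay above all later ones, and the Adult and Sperm libraries overlapped. The Infant mean was 1212 ± 328 CPM (SD, n = 3), the Pre-puber mean 912 ± 224 (n = 3), the Puber mean 552 ± 30.5 (n = 3), the Adult mean 397 ± 113 (n = 4) and the Sperm mean 347 ± 83.6 (n = 4). Its rank by mean level was 43, 55, 61, 70 and 59 in the same order. As a share of annotated counts, the members together made up 0.485 ± 0.055% of Infant libraries, 0.420 ± 0.10% of Pre-puber, 0.301 ± 0.052% of Puber, 0.265 ± 0.090% of Adult and 0.179 ± 0.046% of Sperm libraries (mean ± SD, with the same n).

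With the library total alone as the scale, the direction over the testis stages was the same and the groups lay closer. For miR-181a the Infant mean was then 3853 ± 292 CPM (SD, n = 3), the Pre-puber mean 3274 ± 833 (n = 3), the Puber mean 2324 ± 418 (n = 3), the Adult mean 2144 ± 799 (n = 4) and the Sperm mean 1500.2 ± 323 (n = 4). For miR-181b the means, in the same order and with the same n, were 994 ± 350, 924 ± 259, 686 ± 107, 505 ± 114 and 287 ± 143 CPM. On this scale every group overlapped with its neighbour in the order of means for both members, and Sperm was the lowest group for both.

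**Figure D1:**
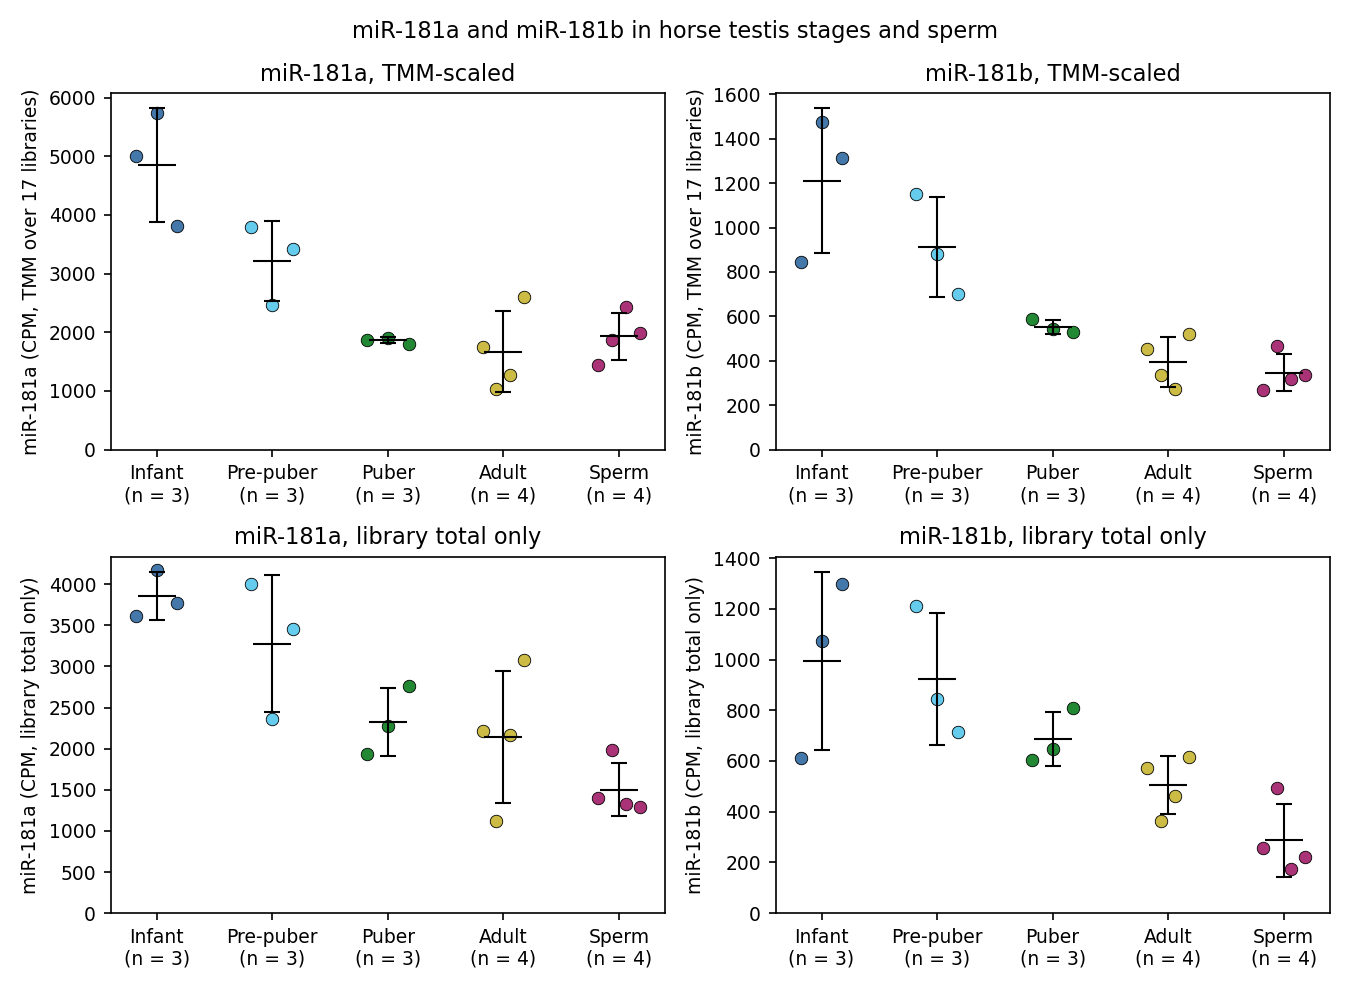
Level of miR-181a (left) and miR-181b (right) in CPM in each library by group, with TMM scaling over the 17 libraries (top) and with the library total alone (bottom). Points are libraries, horizontal marks are means and bars are 1 SD. With TMM the Infant means were 4853 and 1212 CPM and the Adult means 1667 and 397 CPM, and Sperm overlapped with Adult, while with the library total alone Sperm was lowest for both.

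The stage test asked whether a miRNA differed among the 4 testis stages. Both members changed over the stages in edgeR's quasi-likelihood F test with Benjamini-Hochberg adjustment over the 184 miRNAs tested, with adjusted p = 0.000632 for miR-181a and adjusted p = 0.000595 for miR-181b. Of all 184 miRNAs, 88 (47.8%) were called in this test, so a call was common. Neither call held with the library total alone as the scale (edgeR adjusted p = 0.138 and 0.0965).

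Both members fell in Adult against Infant testis. miR-181a stood at 0.280 times its Infant level (edgeR log2 fold change -1.84 ± 0.27 SE, adjusted p = 0.000165), and its Adult libraries, at 1031 to 2603 CPM, lay below the Infant libraries at 3815 to 5745 CPM. miR-181b stood at 0.272 times its Infant level (log2 fold change -1.88 ± 0.26 SE, edgeR adjusted p = 0.000138), with 274 to 523 CPM in Adult below 845 to 1477 CPM in Infant. In this comparison edgeR called 95 of 184 miRNAs (51.6%), 47 of them lower (25.5%) and 48 higher (26.1%). This split depended on the scaling: with the library total alone 21 were lower and 84 higher, and with the predicted hairpins in the fit 120 were lower and 30 higher. Adult libraries lay wholly below Infant libraries for 38 miRNAs (20.7%) and wholly above for 54 (29.3%). Both falls were called under every alternative tried, including each library left out in turn, but were smaller with the library total alone (log2 fold change -0.85 for miR-181a and -0.98 for miR-181b) and larger with the predicted hairpins in the same fit (-3.71 and -3.80). The median log2 fold change of all tested miRNAs moved with these settings, from -1.90 to 0.82. Relative to that median, miR-181a lay between -1.98 and -1.66 and miR-181b between -1.99 and -1.74 under all 11 settings that kept all libraries. A change of scale shifts all miRNAs of a fit nearly alike, so this distance moves little by construction.

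The falls between successive stages were not called. From one stage to the next the log2 fold change of miR-181a was -0.74 ± 0.29 SE in Pre-puber against Infant (edgeR adjusted p = 0.0879), -0.63 ± 0.29 in Puber against Pre-puber (adjusted p = 0.265) and -0.47 ± 0.27 in Adult against Puber (adjusted p = 0.357). For miR-181b it was -0.57 ± 0.27 (edgeR adjusted p = 0.159), -0.54 ± 0.27 (adjusted p = 0.316) and -0.77 ± 0.25 (adjusted p = 0.101) in the same comparisons. All 6 estimates were negative. On the TMM scale the miR-181a libraries of Pre-puber, at 2467 to 3788 CPM, lay just below those of Infant, at 3815 to 5745 CPM. Those of Puber, at 1807 to 1907 CPM, lay below those of Pre-puber, and Adult overlapped with Puber. For miR-181b, Pre-puber overlapped with Infant, Puber lay below Pre-puber and Adult lay below Puber.

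The share of all miRNAs called gives the background for these steps. edgeR called 44 of 184 (23.9%) in Pre-puber against Infant, of which 15 were lower (8.15%) and 29 higher (15.8%), and 2 of 184 (1.09%) in Puber against Pre-puber. In Adult against Puber it called 0 of 184. There 34 passed 0.05 before adjustment, DESeq2 called 10 and limma-voom 0. Libraries lay wholly below those of the earlier stage for 11.4% of miRNAs for Pre-puber, 15.8% for Puber and 9.78% for Adult. The fall of miR-181a in Pre-puber against Infant was called with upper quartile scaling (log2 fold change -1.02, edgeR adjusted p = 0.0413). Both members were called lower in Puber against Pre-puber with the predicted hairpins in the fit (-2.52 and -2.51, adjusted p = 0.00644 and 0.00791), a setting in which the median of all tested miRNAs was -1.94.

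**Figure D2:**
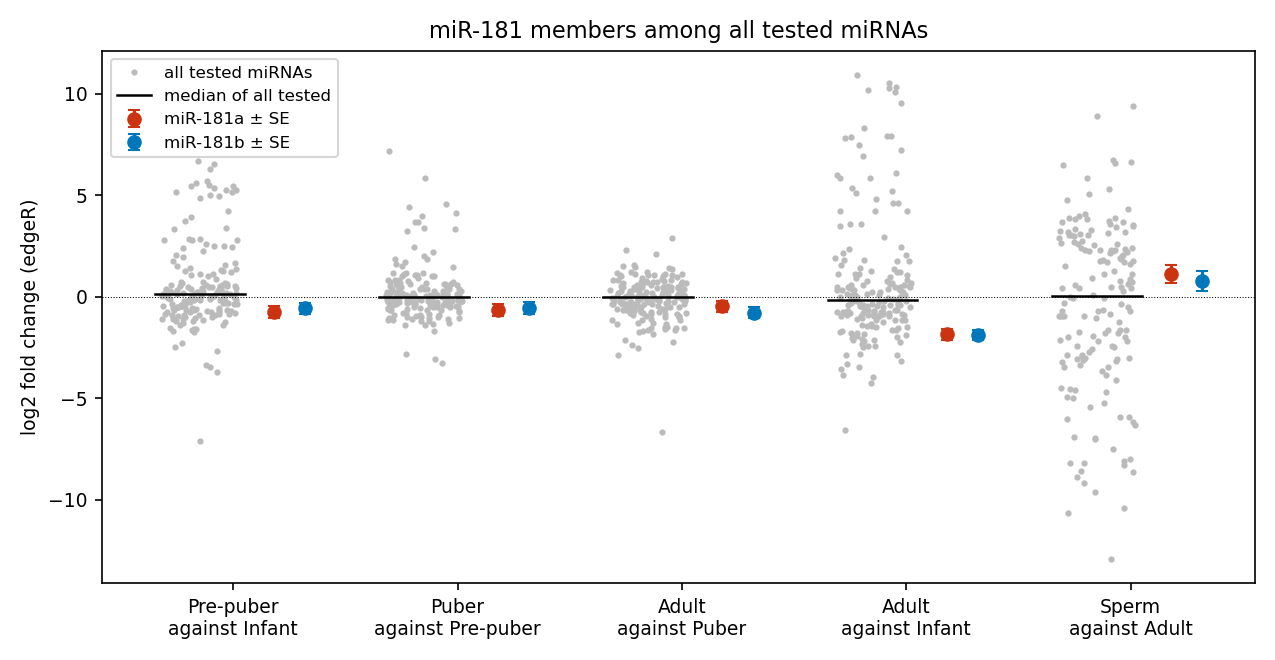
Log2 fold change from edgeR in each comparison for all tested miRNAs (grey points, spread sideways at random, with their median as a black line) and for miR-181a (red) and miR-181b (blue) with bars of 1 SE. Both members lay below the median in the 4 testis comparisons, furthest in Adult against Infant at -1.84 and -1.88, and above it in Sperm against Adult at 1.12 and 0.78.

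The comparison of Sperm with Adult testis asked how the miRNA content of the released germ cell differs from that of the organ. miR-181a rose in Sperm in the fit of these 8 libraries (edgeR log2 fold change 1.12 ± 0.43 SE, adjusted p = 0.0141), and miR-181b had a log2 fold change of 0.78 ± 0.48 (adjusted p = 0.124) and was not called. This fit called 132 of 162 miRNAs (81.5%), of which 68 were higher (42.0%) and 64 lower (39.5%), so a call was common here. With the library total alone 36 were higher and 86 lower. Both members overlapped between the groups, whereas Sperm lay wholly above Adult for 25.3% of miRNAs and wholly below for 46.3%. The direction depended on the scale. With the library total alone miR-181a stood at 1396, 1981, 1328 and 1296 CPM in Sperm 1, 2, 3 and 4 and at 2210.1, 1124, 2163 and 3076 CPM in Adult 13, 20, 33 and 4. On that scale the log2 fold change was -0.51 for miR-181a (edgeR adjusted p = 0.267) and -0.82 for miR-181b (adjusted p = 0.131), the other sign for both.

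The miR-181a difference stayed positive and was called with upper quartile scaling (0.90, edgeR adjusted p = 0.037). It was not called with RLE size factors (0.46, edgeR adjusted p = 0.314), in a fit of all 17 libraries (0.46, adjusted p = 0.126) or with DESeq2 (0.46, adjusted p = 0.228). Without Adult 20, the Adult library with the lowest miR-181a level, the call also ended (log2 fold change 0.56, adjusted p = 0.144). Without Sperm 3, miR-181b was called (log2 fold change 0.97, adjusted p = 0.0474). The median of all tested miRNAs moved from 0.06 with TMM to -1.61 with the library total alone. Set against that median, miR-181a lay 1.06 to 1.28 higher and miR-181b 0.72 to 0.92 higher on the log2 scale in all 9 settings with all libraries. This too moves little with the scale by construction. With 1 library left out in turn the distance was 0.84 to 1.51 for miR-181a and 0.43 to 1.18 for miR-181b. Sperm RNA had a shorter DNase treatment than testis RNA and an added purification, per the labels, and tissue and protocol cannot be told apart.

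**Figure D3:**
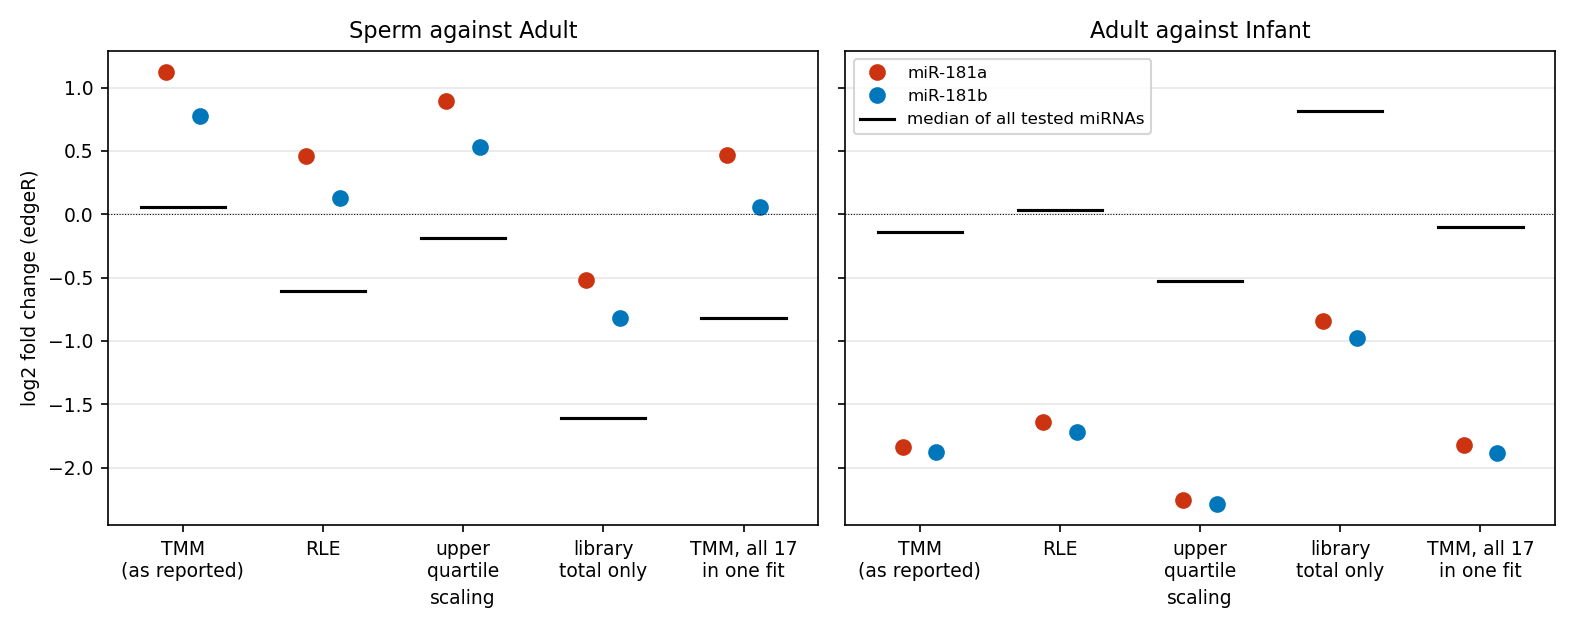
Log2 fold change of miR-181a (red) and miR-181b (blue) and the median of all tested miRNAs (black line) under 5 ways of scaling, in Sperm against Adult (left) and Adult against Infant (right). In Sperm against Adult both members took the other sign with the library total alone (-0.51 and -0.82) but lay above the median in each setting, and in Adult against Infant both were negative and below the median in each.

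The 2 members were compared within each library, where scaling has no effect. How reads that match both were counted is not given in the sources used here. There were 16.9, 25.7 and 34.4 miR-181b counts per 100 miR-181a counts in Infant 31a, 31b and 30, with 30.3, 35.8 and 20.6 for Pre-puber 3a, 3b and 14. The ratio was 31.3, 28.5 and 29.2 for Puber 10, 11 and 19, then 26.0, 32.4, 21.4 and 20.1 for Adult 13, 20, 33 and 4, and 18.5, 25.0, 13.1 and 16.96 for Sperm 1, 2, 3 and 4. The Infant libraries covered most of the range seen over the testis, and Infant 31a and 31b, which share a title number, differed from each other. Sperm had the lowest mean, 18.4 ± 4.96 (SD, n = 4), against 25.0 ± 5.59 in Adult (n = 4), and the groups overlapped.

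None of the 5 comparisons of the log2 ratio passed the threshold in the exact two-sided permutation test. After adjustment over the 5, no single comparison could have passed alone with so few libraries, even with groups wholly apart. The difference was -0.45 in Sperm against Adult (exact permutation p = 0.114, adjusted p = 0.571 over the 5 comparisons, smallest possible p 0.0286), with 3 of 4 Sperm libraries below all Adult libraries. It was -0.01 in Adult against Infant (exact permutation p = 0.971) and -0.27 in Adult against Puber (exact permutation p = 0.286, adjusted p = 0.714). In Puber against Pre-puber it was 0.07 and in Pre-puber against Infant 0.19 (exact permutation p = 0.90 and 0.60, adjusted p = 0.971 for both), where 3 against 3 libraries cannot give a p below 0.10. These tests therefore do not show whether the members changed alike.

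**Figure D4:**
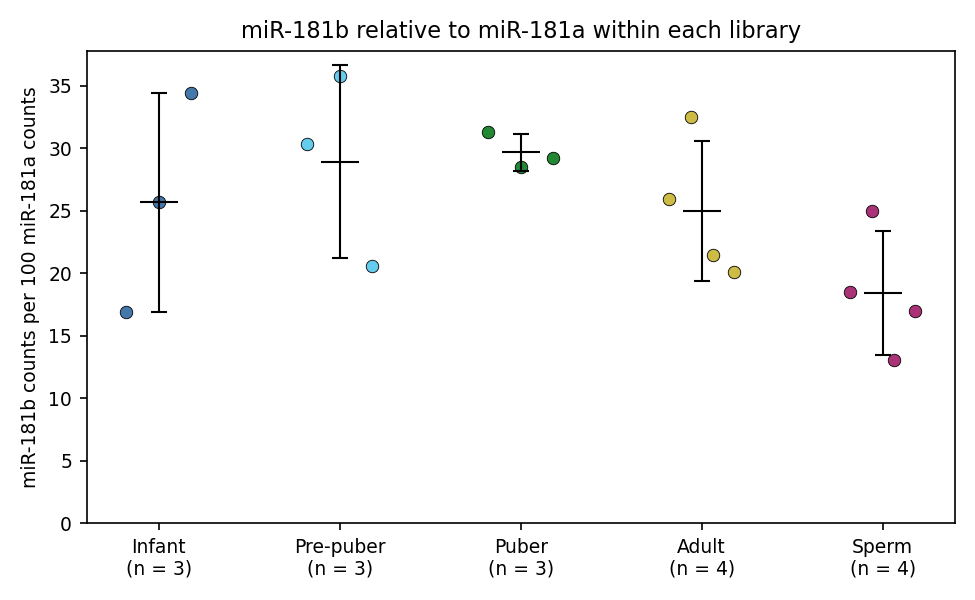
miR-181b counts per 100 miR-181a counts in each library by group. Points are libraries, horizontal marks are means and bars are 1 SD. The Infant libraries ran from 16.9 to 34.4, the Puber libraries lay between 28.5 and 31.3, and the Sperm mean of 18.4 was the lowest, with 1 Sperm library within the Adult range.

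The predicted hairpin 7_4647971, whose sequence is printed above, held far fewer reads than the members. It had 48, 66 and 69 counts in Infant 31a, 31b and 30, then 135, 41 and 49 for Pre-puber 3a, 3b and 14 and 57, 34 and 49 for Puber 10, 11 and 19. For Adult 13, 20, 33 and 4 there were 28, 14, 36 and 31 counts, with 22, 36, 10 and 9 for Sperm 1, 2, 3 and 4. As a level, the Infant mean was 7.19 ± 0.19 CPM (SD, n = 3), the Pre-puber mean 6.95 ± 2.46 (n = 3), the Puber mean 7.85 ± 1.45 (n = 3), the Adult mean 5.82 ± 0.85 (n = 4) and the Sperm mean 12.2 ± 3.88 (n = 4). The testis means lay close together, and on this TMM scale each Sperm library was above each Adult library. With the library total alone as the scale, Sperm and Adult overlapped. How many hairpins had these groups wholly apart was not computed.

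This hairpin was not called over the testis stages (edgeR adjusted p = 0.693 in a fit of the predicted hairpins), where 659 of 708 tested hairpins (93.1%) were. Its log2 fold change in Adult against Infant was -0.56 ± 0.61 SE (edgeR adjusted p = 0.378), while 93.8% of hairpins were called in that comparison. With annotated miRNAs and hairpins in one fit, both were called (stages adjusted p = 0.00578, Adult against Infant -2.38 with edgeR adjusted p = 0.00345). In that fit 170 of 184 annotated miRNAs were called over the stages. Their median log2 fold change in Adult against Infant was -1.90, so much of the -2.38 was shared with them. Whether the hairpin differed from the members over the stages was not tested. In Sperm against Adult it rose (log2 fold change 2.06 ± 0.60 SE, edgeR adjusted p = 0.00307), where 398 of 611 hairpins (65.1%) were called. It was not called with the library total alone (0.46, adjusted p = 0.535), in a fit of all 17 libraries (1.30, adjusted p = 0.0813) or with all entries in one fit (1.12, adjusted p = 0.0839).

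The other hairpin, 7_4521473, also picked by the seed letters alone, rose over the testis stages. Whether it is a miRNA at all was not tested, so its values are not read as a measure of the family. Infant 31a, 31b and 30 had 0, 2 and 0 counts, Pre-puber 3a, 3b and 14 had 5, 2 and 36, and Puber 10, 11 and 19 had 37, 50 and 136. For Adult 13, 20, 33 and 4 there were 434, 138, 316 and 330 counts, with 133, 196, 38 and 34 for Sperm 1, 2, 3 and 4. All Adult libraries stood far above all Infant libraries, and Pre-puber 14 was the high one of its group. The share of hairpins with groups wholly apart was not computed. Adult over Infant was a ratio of 796 with a 95% exact counting interval of 219.9 to 6582, from 1218 counts against 2. That interval covers counting error only. The fit gave a fold of 605.9 (edgeR adjusted p = 0.000125), in a comparison where 664 of 708 hairpins (93.8%) were called. With 0, 2 and 0 counts in Infant, the hairpin passed the low-count filter only through later stages, where it was high. A rise was thus favoured in advance, and this p-value is no separate support for it. Both Infant counts came from Infant 31b, and without it the fitted fold was 3327 (adjusted p = 0.000661), so the size of the ratio rests on that library. The hairpin was also called higher in Pre-puber against Infant (edgeR adjusted p = 0.0186), where 526 of 708 hairpins (74.3%) were called, but not without Pre-puber 14 (adjusted p = 0.288), Infant 30 (0.0627) or Infant 31a (0.0565). With only these groups in the fit the hairpin did not pass the low-count filter and had no test, so it was tested here only because of its counts in later stages. In Puber against Pre-puber it lay at the threshold (edgeR adjusted p = 0.049, with 55.1% of hairpins called), and 12 of 23 alternatives kept that call. The call ended with all entries in one fit (adjusted p = 0.211), with these groups alone (0.131), with libraries of one title number summed (0.0949), with no low-count filter (0.0516) and in 7 of the 13 fits without 1 library, up to 0.152 without Puber 19. It was not called in Sperm against Adult (adjusted p = 0.197).

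The miRNAs whose levels ran most like the members were found by Pearson correlation of log2(CPM + 1) over the 17 libraries among 146 others with a mean of at least 10 CPM. These values describe libraries that share stage, depth and scaling. miR-181a and miR-181b were each the other's closest match (r = 0.84). Over the 13 testis libraries r was 0.90, and over the 8 Sperm and Adult libraries it was 0.53. For miR-181a the next were miR-26a (r = 0.84), miR-99a (r = 0.78), miR-211 (r = 0.68) and miR-873 (r = 0.67), and for miR-181b they were miR-675 (r = 0.83), miR-99a (r = 0.81), miR-1298 (r = 0.79) and miR-411 (r = 0.78). miR-675 is cut from the imprinted H19 transcript, and miR-411 belongs to the imprinted DLK1-DIO3 region. All of these had their highest group mean in Infant. On the scale of all 17 libraries miR-26a stood at 51805 CPM in Sperm and 49458 CPM in Adult, while miR-211 stood at 18.9 CPM in Sperm and 59.4 CPM in Adult.

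The least alike miRNAs all had their lowest group mean in Infant. For miR-181b they were miR-34c (r = -0.91), miR-449a (r = -0.90) and miR-34b-5p (r = -0.90), all of the germ cell list. For miR-181a they were miR-9149 (r = -0.84), miR-8908j (r = -0.80) and miR-34c (r = -0.80). miR-34c averaged 90234 CPM in Sperm, 37865 in Adult and 23.8 in Infant.

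Lists of marker miRNAs were set beside the members, described by counts. Of the miRNAs of lymphoid and haematopoietic cells, in which miR-181 is known to act, 4 of 7 were measured and 3 fell in Adult against Infant, where 25.5% of all miRNAs fell. These were miR-155, an immune activation miRNA (log2 fold change -1.98 ± 0.29 SE, edgeR adjusted p = 0.000161), miR-146a, a brake on innate immune signalling (-1.51 ± 0.42, adjusted p = 0.00984), and miR-150 of mature lymphocytes (-2.16 ± 0.38, adjusted p = 0.000409). miR-142-5p, found throughout blood cells, was not called (-0.76 ± 0.46, adjusted p = 0.18). The median of the 4 was -1.74, against -0.14 over all tested miRNAs. Their summed level was 2342 to 3739 CPM in Adult and 6494 to 9346 CPM in Infant, without overlap, and the part of such cells in the fall of miR-181 was not tested. In Sperm against Adult miR-155 (log2 fold change 3.07 ± 0.44, edgeR adjusted p = 9.01e-09) and miR-146a (2.20 ± 0.46, adjusted p = 1.98e-05) rose, in a comparison where 42.0% of all miRNAs rose. miR-150 and miR-142-5p were not called there, and the median of the 4 was 1.11, against 0.06 over all tested.

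Of the 6 miRNAs of the blood cell list 4 were measured, of which miR-150 and miR-142-5p are also in the list above. In Adult against Infant, where 25.5% of all miRNAs fell, 1 of the 4 fell (miR-150) and 3 were not called, with a median of -0.61. The red cell miRNAs miR-486-5p and miR-451 had log2 fold changes of -0.46 ± 1.00 SE and 0.25 ± 1.02 (edgeR adjusted p = 0.711 and 0.844). The summed level of the list overlapped between the groups, at 948 to 4438 CPM in Adult and 857 to 5466 CPM in Infant. In Sperm against Adult, where 42.0% of all miRNAs rose, miR-451 was the 1 of 4 that rose (2.69 ± 0.56, edgeR adjusted p = 1.97e-05).

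Markers of the stromal and endothelial lists fell or were not called. Of the stromal list, 3 of 5 were measured and 2 fell in Adult against Infant (25.5% of all miRNAs fell), miR-199a-5p (log2 fold change -1.67 ± 0.23 SE, edgeR adjusted p = 0.000138) and miR-199b-5p (-2.13 ± 0.44, adjusted p = 0.00123). miR-145 had the other sign and was not called (0.53 ± 0.29, edgeR adjusted p = 0.141). The median of the 3 was -1.67. The summed level of the 3 was 13139 to 20090.3 CPM in Adult and 30113 to 41271 CPM in Infant. All 3 fell in Sperm against Adult, where 39.5% of all miRNAs fell, with a median of -7.00, to 41.4 to 122 CPM in Sperm, where miR-181a stood at 1450.45 to 2429 CPM. The endothelial miR-126-5p was not called in Adult against Infant (0.44 ± 0.46, adjusted p = 0.436) and fell in Sperm against Adult (-3.01 ± 0.54, adjusted p = 1.2e-06).

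All 4 measured germ cell miRNAs of 5 listed rose in Adult against Infant, where 26.1% of all miRNAs rose, with a median log2 fold change of 10.28, and miR-34c and miR-449a stood at 10.36 ± 1.59 SE and 10.56 ± 1.79 (edgeR adjusted p = 0.000201 and 0.000329). Germ cell markers thus moved with the fall of miR-181, and their part in that fall was not tested. All 4 also rose in Sperm against Adult, where 42.0% of all miRNAs rose, with a median of 2.90. Of the striated muscle list 1 of 7 was measured, miR-499-5p, which rose in Adult against Infant (2.05 ± 0.34, edgeR adjusted p = 0.000291) and in Sperm against Adult (5.86 ± 0.51, adjusted p = 1.29e-15). Of the neural list 5 of 9 were measured. miR-9a rose in both comparisons (2.15 ± 0.33 and 2.37 ± 0.46, edgeR adjusted p = 0.000201 and 6.17e-06), miR-138 rose in Adult against Infant, and in Sperm against Adult miR-124 rose while miR-129a-5p, miR-129b-5p and miR-138 fell. The nearly equal values of miR-129a-5p and miR-129b-5p (-1.62 for both) cannot be taken as separate measurements. miR-202 of the gonadal soma had no entry among the annotated miRNAs.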

How the data were processed

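Small RNA was measured in 13 testis and 4 sperm libraries. Per the labels' protocols, RNA was isolated with TRIzol and adapters were ligated before reverse transcription and PCR. The submitters' processing notes name Trimmomatic and the build EquCab3.0, while aligner and counting program are not given in the sources used here. Whole read counts per entry filled the deposited count columns. The deposited RPM columns, scaled by the authors to the column total, were not used. Each column was assigned by the number in the sample's title. Number 4 occurs in Adult and Sperm, and the prefix se was read as sperm because it also stands on columns 1 and 2.

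For each annotated name the entry with the highest total was kept (274 names). Tests used edgeR 4.0.16 in R 4.3.3 (quasi-likelihood, filterByExpr, TMM, Benjamini-Hochberg adjusted p under 0.05), in one fit of the 13 testis libraries (184 miRNAs) and one of the 8 Sperm and Adult libraries (162). Standard errors were derived from the F statistic. Predicted hairpins were fitted separately with the annotated library sizes and scaling factors. Levels in the text are scaled over 17 libraries, so they need not give the ratio of a fit. Ratios used a pseudocount of 0.5. The scripts were tested on simulated data. The most and least alike miRNAs named are the 5 highest and 3 lowest correlations for each member, and each marker list is named by its most abundant members. Further list members were named after their values were seen. Alternatives were DESeq2 1.42.0, limma-voom (limma 3.58.1), other scalings, filters and sets of libraries. Members and lists were chosen with earlier results of these data known.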

Additional observations from a re-analysis of the deposited data

Results flagged for a closer look

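With the library total alone as the scale, miR-181a in Sperm 2 stood at 1981 CPM, apart from the other Sperm libraries at 1396, 1328 and 1296 CPM. Of the 14 groups of 4 libraries looked at in this way, about 1 in 20 would be marked by chance. With TMM scaling Sperm 2, at 1861 CPM, lay between Sperm 1 and Sperm 3.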

How the results depend on the processing

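Of 307 recomputed values of the members and their ratio, 286 kept their direction and their side of the threshold. The 307 include ratio tests that could hardly have passed the threshold. They also include fits without a library that belongs to neither compared group, so the count of 286 says little by itself. With the library total alone, the stage test gave adjusted p = 0.138 for miR-181a and 0.0965 for miR-181b, and Sperm against Adult took the other sign (-0.51 and -0.82). For Sperm against Adult, miR-181a was not called with DESeq2 (0.46), RLE scaling (0.46), all 17 libraries in one fit (0.46) or all entries in the fit (0.15), and miR-181b stood at -0.10 with all entries. With all entries, Puber against Pre-puber was -2.52 and -2.51, and with upper quartile scaling miR-181a in Pre-puber against Infant was -1.02. Leaving out 1 library gave 0.56 to 1.43 for miR-181a and 0.31 to 0.97 for miR-181b in Sperm against Adult. The log2 ratio of miR-181b to miR-181a then ran from -0.078 to 0.43 in Pre-puber against Infant (-0.11 with libraries of one title number summed), -0.15 to 0.24 in Puber against Pre-puber and -0.28 to 0.24 in Adult against Infant, in designs too small to pass the threshold. For hairpin 7_4521473, Sperm against Adult was -0.69 with the library total alone. For hairpin 7_4647971, Pre-puber against Infant was 0.27 with all entries and 0.28 with the library total alone, Puber against Pre-puber -1.61 with all entries, and Adult against Infant 0.35 with the library total alone and -2.38 with all entries. The cause of these changes was not tested.

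Counts of called miRNAs moved by over 1.5 times in the stage test (170 with all entries, against 88), Pre-puber against Infant (26 with these groups alone and 29 with summed libraries, against 44), Adult against Infant (150 with all entries, against 95), Puber against Pre-puber (0 to 106, against 2, and 30 without Pre-puber 14) and Adult against Puber (0 to 19, against 0). The members held 257 or more counts in every library, so counting error was small for them, while hairpin counts went as low as 0. The alternative of a lower entry could not be run, since each member had 1 entry. No paired analysis was possible because the groups compared share fewer than 2 title numbers.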
